A study of Mus musculus with 13 samples.

Results

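Of the 13 libraries of the series, 9 were compared: 6 from cells sorted as mesenchymal stromal cells (MSCs) of pre-leukemic mice and 3 from cells sorted as MSCs of healthy mice. They were chosen by their labels, and the 4 libraries of recovered mice were left out of the contrast and entered only the filter on low values and the estimate of the spread. Both groups were of the C57BL/6J background, labelled C57BL/6, and the cells were sorted from a mixture of nucleated cells of bone marrow and compact bone. The sources used here do not give the allele, transplant or agent that made the mice pre-leukemic, nor their age and sex, the surface markers of the sort or the number of animals per library. No label says that the replicates came from separate animals. A p-value therefore speaks of the spread among these libraries, which may be technical.

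MSCs are rare connective-tissue cells of the marrow that give rise to bone, fat and cartilage cells. They lay down the collagen matrix of bone and make CXCL12, stem cell factor and other signals on which blood-forming cells depend. They belong to no blood lineage, so they do not carry the leukocyte antigen CD45, and immunoglobulin genes are transcribed by cells of the B lineage. The question addressed was how such cells differ between pre-leukemic and healthy mice.

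Expression is given as FPKM, fragments scaled to transcript length and library size, in each library. Changes are differences of log2(FPKM + 1), pre-leukemic minus healthy, with their standard error (SE). Adding 1 understates the change of genes with low values. Genes were called at a Benjamini-Hochberg adjusted p of limma under 0.05. Where a group was listed at 0 throughout, the adjusted p stands without a change. For the 6 pre-leukemic libraries the lowest, the median and the highest value are given unless all 6 are named. Values of healthy 1, 2 and 3 come first, and a member of a gene list that reached the filter through the high values of 1 group only had to differ, so counts over the members tested are descriptions. The values of healthy 1 and healthy 3 lay about as close as sampling noise allows (chi-square per gene 1.18 over 207 genes, against 21.4 to 63.6 for the other pairs of libraries of the same group). Their mean therefore counted as 1 sample, which left 2 healthy samples.

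In the pre-leukemic libraries, 54.9 to 80.5% of all FPKM belonged to immunoglobulin genes, and in the healthy ones at most 0.0301%. The low end came from libraries 1 and 2, at 54.9 and 55.3%, and the other 4 held 70.7 to 80.5%. For Igkc, the constant gene of the kappa light chain, pre-leukemic 1 and 2 held a 0, where the other 4 libraries had 966100 to 1668000 FPKM. An exact 0 in such a table can be a failed estimate, so counts are also given without these 2 libraries. The sum over all other genes was 539494 to 583332 FPKM in pre-leukemic and 601856 to 626159 in healthy libraries. Estimated from the steps between low values, 1 read on 1 kb was worth 0.32 to 0.397 FPKM in healthy and 0.172 to 0.256 in pre-leukemic libraries. Low values were thus read with finer steps in the pre-leukemic libraries. RNAs that carry no or few poly(A) tails also differed, as picked out after the values were seen. The mitochondrial ribosomal RNA mt-Rnr2 was at 5337, 5606 and 5440 FPKM in healthy 1 to 3 and at 687, 807 and 927 in pre-leukemic libraries (-2.79 ± 0.18, adjusted p = 1.23e-07), and the nuclear RNA Malat1 was at 792, 1159 and 822 and 49.7, 95.8 and 162 (-3.42 ± 0.45, adjusted p = 7.2e-05). Of the 12 mitochondrial messenger RNAs tested, 11 were higher and 0 lower, against 14.2 and 13.1% of all genes, mt-Co1 among the higher (1.09 ± 0.13, adjusted p = 3.67e-05). They made up 3.94 to 4.53% of all FPKM in healthy and 1.55 to 4.02% in pre-leukemic libraries, but 3.95 to 4.53% and 7.54 to 9.0% of the FPKM outside the immunoglobulin genes. How far RNA quality or library preparation enters the results below was not tested.

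The label of the sort was first set against its defining markers. Pdgfrb, a receptor of platelet-derived growth factor carried by perivascular stroma, was at 51.5, 57.2 and 49.9 FPKM in healthy 1 to 3 and at 0.464, 1.08 and 2.68 in the pre-leukemic libraries (-4.70 ± 0.52, adjusted p = 1.73e-05). Every pre-leukemic library lay below every healthy one. Lepr, the leptin receptor that marks CXCL12-rich stroma (chromosome 4, 101717404 to 101815352), was at 23, 26.2 and 22.2 in healthy libraries. In pre-leukemic 1 to 6 it was at 1.32, 0.344, 0, 0, 7.39 and 1.03, so that only library 5 held a level above 2 FPKM. Mcam, an adhesion molecule of stromal progenitors, was at 12.1, 5.02 and 12.3 FPKM in healthy libraries and listed at 0 in all 6 pre-leukemic ones (adjusted p = 0.00168). Ptprc, which encodes CD45 (chromosome 1, 138062861 to 138175708), was at 0.592, 0.0798 and 1.25 FPKM in healthy and at 110.0, 138, 137, 151, 155 and 80.7 in pre-leukemic 1 to 6, with no overlap. The markers thus go against the label in the pre-leukemic group, which is called here by its label and not as MSCs. Whether labels or columns were exchanged with those of another sorted population was not tested, and every contrast below holds for the libraries as labelled. In bulk RNA, fewer cells of a type and less RNA per cell cannot be told apart.

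Of 21 genes of mesenchymal identity 20 were tested, and 2 were higher, 11 lower and 7 neither, against 14.2% of all genes higher and 13.1% lower. The median change was -2.48, against 0.197 over all genes tested. Without pre-leukemic 1 and 2 the counts were again 2 and 11, and on a TPM scale 1 and 16. The 2 higher genes were Alcam and Ly6a, both also expressed by leukocytes. Alcam, an adhesion molecule of activated T cells and stroma, was listed at 0 in healthy libraries and at 13.1, 21 and 30.1 FPKM in pre-leukemic libraries (adjusted p = 1.8e-05). Ly6a, which encodes the surface antigen Sca-1, was at 1390, 1103 and 1382 and 3150, 5373 and 6375 (1.98 ± 0.22, adjusted p = 1.91e-05). The change of Ly6a was 0.31 on a TPM scale (adjusted p = 0.582). Thy1, a glycoprotein shared by stroma and T cells, was not called and was at 66.1, 81.5 and 79.4 FPKM in healthy libraries and 39.9, 52.8 and 70.9 in pre-leukemic ones (-0.51 ± 0.33, adjusted p = 0.283). Ly6a dominated the list's sum, and without it the summed level was 1029 to 1345 FPKM in healthy and 260.7 to 364.1 in pre-leukemic libraries. Pdgfra, the other receptor of the pair, passed (-3.22 ± 0.73, adjusted p = 0.00459) but not without healthy 2 (adjusted p = 0.0762).

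**Figure D1:**
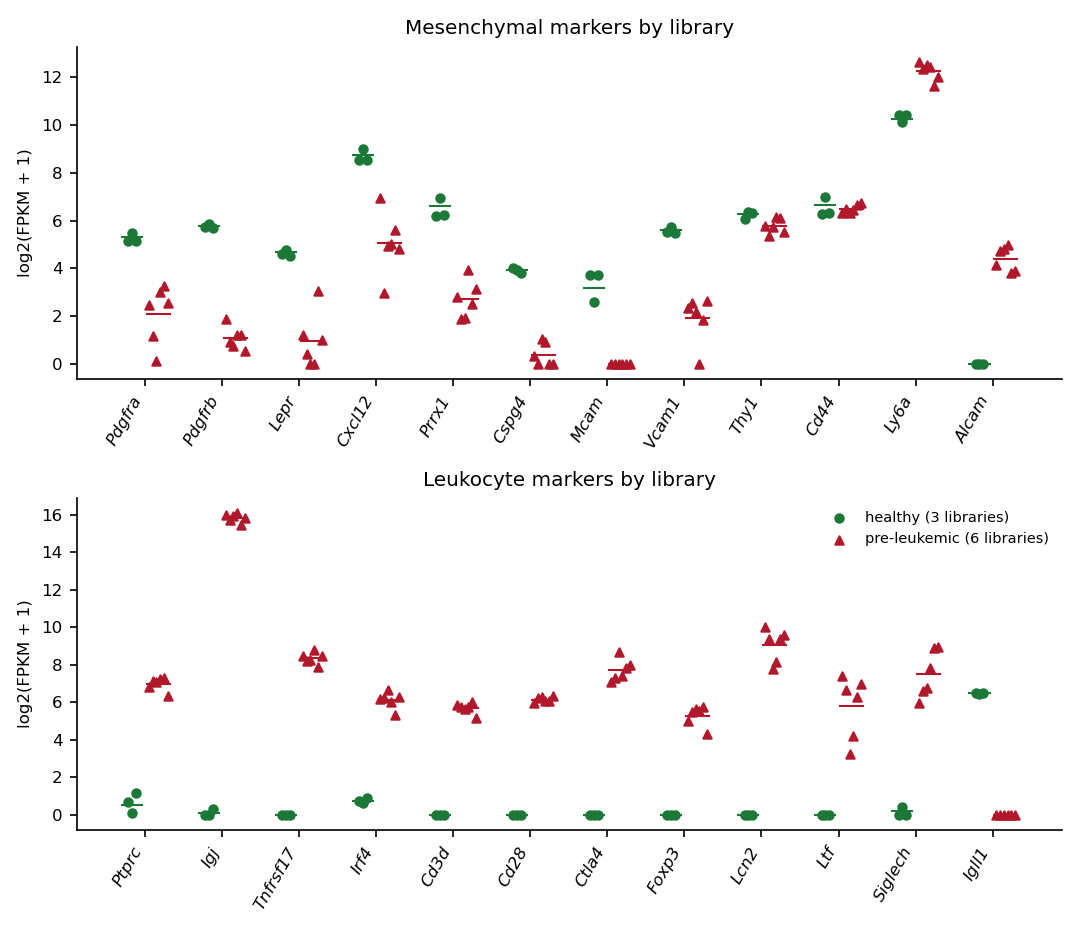
Expression of 12 mesenchymal markers (top) and 12 leukocyte markers (bottom) in each library, as log2(FPKM + 1); circles are the 3 healthy libraries, triangles the 6 pre-leukemic ones in the order 1 to 6, and bars the mean of each group (healthy 1 and 3 averaged first). The receptors Pdgfrb and Lepr lie lower in all 6 pre-leukemic libraries, Ly6a and Alcam higher, and Ptprc, Igj and Ctla4 are near 0 in healthy libraries only.

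Across all 13118 genes tested, 1858 (14.2%) were higher and 1725 (13.1%) lower in the pre-leukemic libraries, 27.3% in all. Without adjustment, 2803 and 2290 genes had a p under 0.05. The median size of a called change was 2.62 among higher and 2.75 among lower genes, and only 25 higher and 19 lower genes changed by less than 1. Among the called genes, 400 of the higher ones were listed at 0 in all healthy libraries and 150 of the lower ones in all pre-leukemic ones. Every pre-leukemic library lay above both healthy samples for 24.9% of the genes and below both for 21.8%. The counts rest on healthy 2: without it 1 healthy sample is left, taken to vary like the other groups, and 785 genes were higher and 931 lower. On a TPM scale, where the immunoglobulin reads take their share of a fixed total, the median change of all genes shifted by -1.28 and 791 genes were higher and 4200 lower, which lowered the share of higher genes among those called from 51.9 to 15.8%. Without pre-leukemic 1 and 2 the counts were 1389 and 1347.

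Transcription factors separated the groups by lineage. The mesenchymal factors hold a cell in the bone, cartilage or tendon lineage, and 37 of the 40 listed were tested. Of these, 1 was higher, 29 were lower and 7 neither (median -3.40). Read against the 13.1% of all genes called lower, the share was 78.4%. For 33 of the 37, every pre-leukemic library lay below both healthy samples, as for 21.8% of all genes. Sox9, the factor of cartilage formation (chromosome 11, 112782224 to 112787760), was at 37.1, 46.9 and 38.1 FPKM in healthy libraries and at 0.395, 0, 0.107, 0, 0 and 0.224 in pre-leukemic 1 to 6 (-5.27 ± 0.45, adjusted p = 1.94e-06). Dlx5, a homeobox factor of bone formation (chromosome 6, 6877805 to 6882085), was at 73, 58.8 and 68 and only above 0 in pre-leukemic 1, at 0.517 (-5.93 ± 0.53, adjusted p = 2.59e-06). Prrx2, a homeobox factor of limb mesenchyme, was at 121, 117 and 123 and 0, 0.836 and 6.39 (-5.94 ± 0.66, adjusted p = 1.8e-05). Twist1, which keeps mesenchymal progenitors undifferentiated, was at 63.5, 82.5 and 58.4 FPKM in healthy libraries and at 2.6, 0.773, 0, 0, 0 and 7.08 in pre-leukemic 1 to 6 (-5.22 ± 0.77, adjusted p = 0.000191). The osteoblast factor Sp7 was listed at 0 in all 6, against 17.1, 8.52 and 15.1 (adjusted p = 0.00092), and the tendon factor Scx was at 34.9, 27.4 and 33.5 and 0, 0 and 0.207 (-4.90 ± 0.98, adjusted p = 0.00195).

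Exceptions to this direction were few. Runx2, which starts bone formation and is also expressed by some blood cells, overlapped between the groups, at 14.9, 33.3 and 13.1 FPKM in healthy libraries and 15.2, 16.1, 15.5, 25.1, 38.9 and 49.3 in pre-leukemic 1 to 6 (0.14 ± 0.55, adjusted p = 0.879). Pparg, the factor of fat cells that macrophages and lymphocytes also use, was the 1 higher member, at 0.906, 0 and 1.21 and 1.56, 7.57 and 17.9 (2.35 ± 0.71, adjusted p = 0.0239). The call of Pparg was lost without healthy 2 (adjusted p = 0.265), without pre-leukemic 1 and 2 (0.0726) and on a TPM scale (0.137). Without healthy 2, 0 mesenchymal factors were higher and 19 lower. Hox genes, which record the position of mesenchyme along the body and limb axes, were largely at low values, and 15 of the 38 in the table were tested. Of these, 0 were higher, 7 lower (46.7% against 13.1% of all genes) and 8 neither. Without healthy 2, 4 of them were lower, with the 3 healthy libraries counted separately 11, and on a TPM scale 12. Over all 13118 genes, 2203 were lower with the healthy libraries separate and 4200 on a TPM scale. Hoxc10, a gene of the hindlimb region, was at 26.2, 25.1 and 26.2 FPKM in healthy and 0, 0.241 and 2.53 in pre-leukemic libraries (-4.10 ± 0.64, adjusted p = 0.000296). Hoxa11 was at 9.64, 6.94 and 8.56 and 0, 0 and 0.228 (-3.09 ± 0.47, adjusted p = 0.000222), and the groups did not overlap for either. No Hoxb gene passed the filter on low values.

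Of 24 haematopoietic transcription factors tested, out of 25 listed, 14 were higher, 1 lower and 9 neither (median 2.61), which is 58.3% higher against 14.2% of all genes. Gata3, the factor of T helper and innate lymphoid cells (chromosome 2, 9857078 to 9890034), was at 0.155, 0 and 0 FPKM in healthy and 61, 61.4, 125, 59.6, 55.2 and 39.1 in pre-leukemic 1 to 6 (5.94 ± 0.50, adjusted p = 1.78e-06). Irf4, which drives plasma cell differentiation and T cell activation, was at 0.642, 0.545 and 0.861 and 38.8, 72.9 and 98.2 (5.39 ± 0.48, adjusted p = 2.84e-06). Gfi1, a repressor in neutrophil and lymphoid precursors, was at 0.164, 0.398 and 0 and 19.2, 32.1 and 40.9 (4.68 ± 0.48, adjusted p = 8.99e-06). All 3 were low in every healthy library and high in every pre-leukemic one. Runx1, which makes blood stem cells in the embryo and is also found in skeletal progenitors, was the 1 lower member, at 21.3, 29.3 and 18.5 and 3.54, 7.03 and 12.9 (-1.65 ± 0.57, adjusted p = 0.0455). Its call was lost in 10 of the alternative analyses, with adjusted p up to 0.295 without healthy 2. Spib and Bcl11a, factors of B cells and plasmacytoid dendritic cells, did not pass. Spib was at 10.3, 7.91 and 8.03 FPKM in healthy libraries and 16.5, 18.8, 10.2, 53.4, 103 and 86.3 in pre-leukemic 1 to 6 (1.89 ± 0.93, adjusted p = 0.148), highest in libraries 4 to 6.

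**Figure D2:**
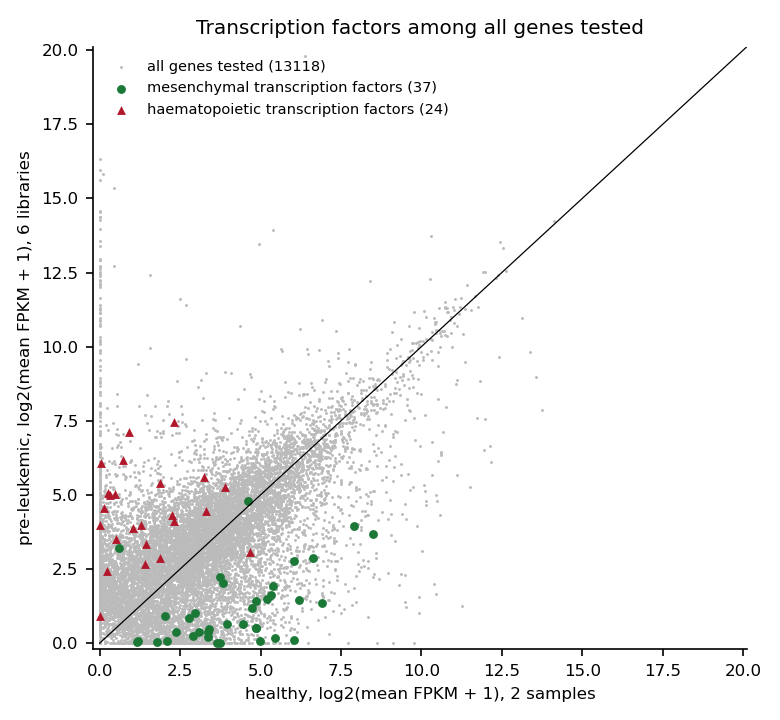
Mean expression of the 13118 genes tested in pre-leukemic (vertical, 6 libraries) against healthy (horizontal, 2 samples), both as log2(mean FPKM + 1), with the line of equal expression. Mesenchymal factors (circles, 37) lie below the line except Runx2 and Pparg, and all 24 haematopoietic factors (triangles) but Runx1 lie above it.

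Collagen chains are hydroxylated, folded and cross-linked by dedicated enzymes, and of the 29 tested genes of this machinery, out of 31 listed, 0 were higher, 23 lower and 6 neither (median -3.35, 79.3% lower). Their summed level was 2396 to 2638 FPKM in healthy and 258.1 to 513.9 in pre-leukemic libraries. Lox, the lysyl oxidase that starts cross-linking, was at 133, 163 and 144 FPKM in healthy and 2.68, 1.07, 0.296, 0, 0.462 and 2.32 in pre-leukemic 1 to 6 (-6.31 ± 0.55, adjusted p = 2.2e-06). Plod2, which hydroxylates lysines for cross-links, was at 43.8, 69.1 and 39.8 and 0.213, 1.05 and 3.73 (-4.71 ± 0.57, adjusted p = 3.55e-05). Serpinh1, the collagen chaperone HSP47 (chromosome 7, 99345376 to 99353239), was at 239, 285 and 224 and 5.95, 15.9 and 25.8 (-4.15 ± 0.48, adjusted p = 2.43e-05). No pre-leukemic library reached a healthy one for these 3 genes. Ppib, a prolyl isomerase that folds collagen and other secreted proteins, was not called, at 171, 93.1 and 178 and 131, 151 and 193 (0.25 ± 0.50, adjusted p = 0.741), and neither was the retrieval receptor Kdelr3 (-0.84 ± 0.60, adjusted p = 0.319).

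The contractile and adhesion list covers actin-binding proteins, caveolae and integrins that stromal cells use to pull on matrix. Of the 28 tested, out of 30 listed, 0 were higher, 20 lower and 8 neither (median -3.17, 71.4% lower). Ctgf, a matricellular protein now named Ccn2, was at 281, 223 and 275 FPKM in healthy and 2.22, 3.97 and 4.91 in pre-leukemic libraries (-5.74 ± 0.42, adjusted p = 4.79e-07). Tpm1, a tropomyosin of stress fibres, was at 209, 240.2 and 208 and 17.1, 23.9 and 31.3 (-3.16 ± 0.34, adjusted p = 1.24e-05), and the focal adhesion gene Tns1 at 25.9, 31.5 and 27.4 and 0.41, 1.26 and 1.88 (-3.80 ± 0.46, adjusted p = 3.8e-05). All 6 pre-leukemic libraries lay below the healthy ones for each. Some members that blood cells also express did not pass. Zyx, a focal adhesion protein, was at 104, 51.5 and 100.3 and 65.5, 121 and 163 (0.56 ± 0.51, adjusted p = 0.442), and Cnn2, a calponin of many cell types, at 47.9, 37.3 and 45.6 and 81, 106 and 189 (1.38 ± 0.70, adjusted p = 0.159).

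Signals from stroma to blood cells were compared together with their receptors. Of 18 tested niche ligands and adhesion partners, 1 was higher, 9 lower and 8 neither (median -1.44). Of 22 receptors 11 were higher, 3 lower and 8 neither (median 1.60). Among all genes 14.2% were higher and 13.1% lower. The 1 higher ligand (5.56%) and the 3 lower receptors (13.6%) were thus below or close to these shares. Without healthy 2 the ligands counted 0 and 6 and the receptors 7 and 3. As TPM, 5 receptors were higher and 5 lower. Csf1, the growth factor of macrophages (chromosome 3, 107741048 to 107760469), was at 44.5, 75 and 40.8 FPKM in healthy and 8.98, 5.39, 13, 9.63, 13.5 and 2.31 in pre-leukemic 1 to 6 (-2.71 ± 0.55, adjusted p = 0.00197), without overlap, but its adjusted p was 0.0573 without healthy 2. Its receptor gene Csf1r was low in both groups, at 0.407, 1.32 and 0 and 0, 0.216 and 2.2 (-0.27 ± 0.50, adjusted p = 0.726). Il6, a cytokine that stroma makes for B and plasma cells, was at 174, 151 and 191 and 5.45, 0, 5.11, 2.95, 0 and 6.62 (-5.68 ± 0.80, adjusted p = 0.000126). Its receptor gene Il6ra overlapped between the groups, at 3.12, 2.9 and 2.66 and 0.967, 2.79 and 9.39 (0.05 ± 0.79, adjusted p = 0.968).

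Spp1, or osteopontin, was the most abundant ligand per length, at 2312, 3469 and 2367 FPKM in healthy and 12.2, 29.8 and 90.1 in pre-leukemic libraries (-6.44 ± 0.52, adjusted p = 1.26e-06). Its receptor gene Cd44 did not pass, at 75.5, 126 and 78 and 77.9, 88 and 104 (-0.15 ± 0.34, adjusted p = 0.785). The Notch ligand Jag1 and the receptor Notch2 were both lower: Jag1 was at 31.8, 54 and 30.3 and 0.0405, 1.01 and 2.08 (-4.54 ± 0.56, adjusted p = 4.25e-05), and Notch2 at 20.9, 33.3 and 21.8 and 1.11, 1.5 and 1.65 (-3.50 ± 0.46, adjusted p = 6.64e-05). Notch1, the receptor of T cell precursors, was not called (0.57 ± 0.53, adjusted p = 0.457). Il7, the growth factor of lymphocyte precursors, overlapped between the groups, at 2.2, 5.21 and 3.2 and 0.966, 0, 0.809, 6.02, 0 and 6.31 (-1.01 ± 0.92, adjusted p = 0.445). Its receptor gene Il7r (chromosome 15, 9505788 to 9530176) did not, at 0.863, 0.349 and 0.535 and 17.5, 59.6 and 101 (5.17 ± 0.69, adjusted p = 8.02e-05). Il34, a second ligand of the Csf1 receptor, was at 8.42, 11.5 and 8.07 FPKM in healthy libraries and above 0 only in pre-leukemic 5, at 1.48 (-3.21 ± 0.71, adjusted p = 0.00365).

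Ligands at low levels completed the list. Kitl, the stem cell factor, was at 4.48, 0.841 and 5.84 FPKM in healthy and 1.96, 0, 0, 0, 0.612 and 1.41 in pre-leukemic 1 to 6 (-1.16 ± 0.78, adjusted p = 0.288). Kit, its receptor on progenitors and mast cells, was listed at 0 in healthy libraries and at 0.214, 2.34 and 3.98 in pre-leukemic ones (adjusted p = 0.0421). The call of Kit was lost in 10 alternative analyses, with adjusted p up to 0.189. Cxcr4, which binds CXCL12, was at 4.79, 4.73 and 5.93 and 3.64, 9.73 and 15.9 (0.72 ± 0.57, adjusted p = 0.377), with library 4 below the healthy ones. Tnfsf13b, or BAFF, did not pass the filter: it was listed at 0 in healthy libraries and at 1.72, 0.806, 0, 0.6, 4.7 and 0 FPKM in pre-leukemic 1 to 6. Its receptor gene on plasma cells, Tnfrsf17, was at 238, 331 and 446. Il15, a cytokine for T and NK cells, was the 1 higher ligand, at 0.514, 0 and 0.382 and 9.3, 8.58, 25, 14.7, 0.715 and 10.8 (3.01 ± 1.04, adjusted p = 0.0451), and its call was lost in 10 of them, with adjusted p up to 0.284.

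**Figure D3:**
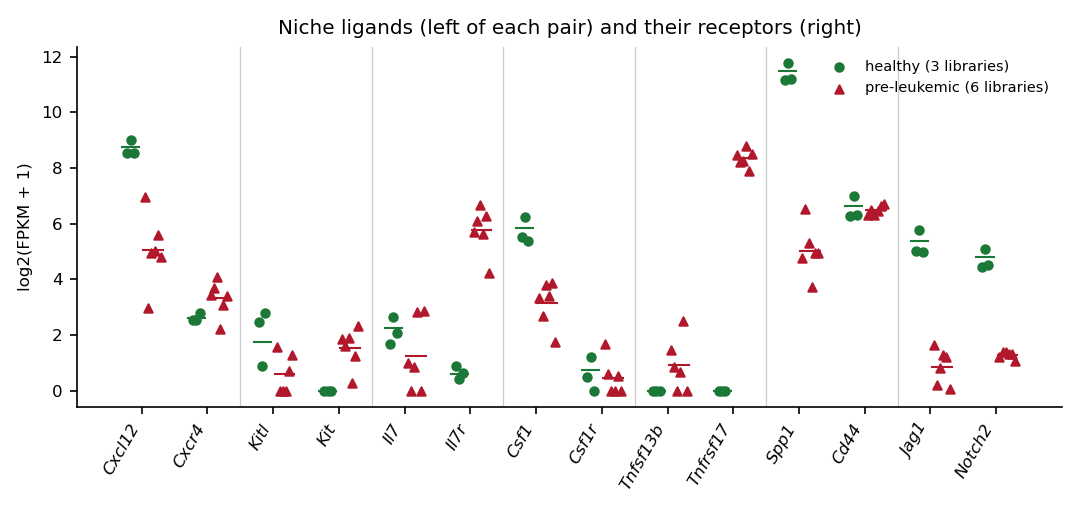
Log2(FPKM + 1) of niche ligands and their receptors in each library, ligand left and receptor right between the grey lines; circles are the 3 healthy and triangles the 6 pre-leukemic libraries in the order 1 to 6, with group means as bars. Cxcl12, Csf1, Spp1 and Jag1 are lower in all 6 pre-leukemic libraries, Il7r and Tnfrsf17 are higher in all 6, and Il7, Kitl, Csf1r and Cd44 overlap between the groups.

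Plasma cell genes were the list with every member higher, at 17 of 17 tested, against 14.2% of all genes (median 4.68). All 17 had every pre-leukemic library above both healthy samples, as 24.9% of all genes had. On a TPM scale 13 of the 17 were called higher, and without pre-leukemic 1 and 2 it was 15. The median of these genes without healthy 2 was 4.65. Without Igj their summed level was 332.7 to 399.1 FPKM in healthy and 4092 to 7332 in pre-leukemic libraries. Tnfrsf17, the BAFF and APRIL receptor BCMA (chromosome 16, 11313812 to 11320074), was listed at 0 in all healthy libraries and at 356, 295, 306, 446, 238 and 358 FPKM in pre-leukemic 1 to 6 (adjusted p = 6.63e-09). Derl3, a protein-degradation factor of secretory cells, was at 0, 0.9 and 0 and 170.2, 360.0 and 421 (7.89 ± 0.45, adjusted p = 5.07e-08). Sdc1, the syndecan CD138 by which plasma cells are often sorted, changed least, at 33, 27.4 and 33 FPKM in healthy libraries and 49.5, 64.2 and 90.1 in pre-leukemic ones (1.10 ± 0.38, adjusted p = 0.043). Syndecan 1 is not restricted to plasma cells, and the healthy libraries were well above 0. The heavy chain genes differed between libraries, although near-identical genes share reads and single values are uncertain. Ighg2c was at 36960, 82730, 69950, 34430, 10750 and 65730 FPKM in pre-leukemic 1 to 6, Ighg1 at 699.5, 38.4, 10.4, 2577, 3180 and 31.1 and Ighg3 at 36.4, 2054, 13.1, 2043, 372 and 13.7. Ighg1 thus spanned 10.37 to 3180 FPKM and Ighg2c 10750 to 82730.

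Plasma cells export antibody through the endoplasmic reticulum, and the list of translocation and N-glycosylation factors follows that route. Of 31 tested, 12 were higher, 0 lower and 19 neither (median 1.03, 38.7% higher). Sec11c, the catalytic subunit of the signal peptidase that is abundant in secretory cells, was at 59.2, 37.1 and 66.4 FPKM in healthy and 591, 970.5 and 1077 in pre-leukemic libraries (4.18 ± 0.64, adjusted p = 0.000254). Its paralog Sec11a was not called, at 80.1, 97.3 and 92.2 and 43, 68.1 and 148 (-0.35 ± 0.48, adjusted p = 0.627). Spcs1, a further signal peptidase subunit, was at 112, 67 and 128 and 338, 414 and 546 (2.26 ± 0.34, adjusted p = 0.000215), and Sec61b of the translocation channel at 211, 200.4 and 218 and 480.4, 748 and 828 (1.75 ± 0.27, adjusted p = 0.000259). On a TPM scale, which lowers all genes together to a median of -1.08, 1 member, Sec11c, was higher and 10 were lower, with a median of -0.60 that still lay above that of all genes. Spcs1 and Sec61b were not called there (adjusted p = 0.375 and 0.902), and Spcs1 overlaps Glt8d1 on the opposite strand, so that its reads are uncertain. Without healthy 2, and without pre-leukemic 1 and 2, 6 were higher and 0 lower. Sec11c is also a member of the plasma cell list, so it counts in both lists. Of the 17 plasma cell genes tested, 17 were higher, and 13 on a TPM scale. Their part in the translocation and N-glycosylation list was not tested.

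Genes of earlier B lineage stages were counted in separate lists. Of 13 tested genes of mature B cells, out of 16 listed, 5 were higher, 1 lower and 7 neither, against 14.2 and 13.1% of all genes, with a summed level of 146.6 to 163.6 FPKM in healthy and 869.2 to 1241 in pre-leukemic libraries. Of 5 tested of the 7 genes of pro-B and pre-B cells 0 were higher, 3 lower and 2 neither. Pax5, which holds B cell identity and is shut off in plasma cells, was at 2.06, 3.52 and 4.59 FPKM in healthy libraries and above 0 only in pre-leukemic 4, at 0.273 (-2.09 ± 0.40, adjusted p = 0.00129). Ms4a1, or CD20, was listed at 0 in healthy and at 3.42, 8.64 and 17.4 in pre-leukemic libraries (adjusted p = 0.00223). Fcrla, an Fc receptor-like protein inside B cells, was at 6.07, 11.8 and 5.77 and 102, 127 and 161 (3.80 ± 0.66, adjusted p = 0.000647). Counted on TPM, 2 mature B cell genes were higher and 2 lower, and without healthy 2 2 were higher and 1 lower. The healthy libraries carried surrogate light chain genes of B cell precursors: Igll1 (chromosome 16, 16860671 to 16863985) was at 89.6, 87.5 and 88.5 FPKM there and listed at 0 in all 6 pre-leukemic libraries (adjusted p = 2.68e-05). Vpreb1, its partner, was at 46.9, 53.9 and 51.2 and 0, 0.591 and 2.18 (-5.01 ± 0.83, adjusted p = 0.000463), so the 2 genes separated the groups in the opposite direction from plasma cell genes. Vpreb3 overlapped between the groups, at 96.9, 129.7 and 88.6 and 111, 141 and 185 (0.35 ± 0.66, adjusted p = 0.73).

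T cell genes were higher as a list. Of 18 tested, 17 were higher, 0 lower and 1 neither (median 4.67, 94.4% higher), and the list's sum was 10.9 to 38.16 FPKM in healthy and 795.7 to 1269 in pre-leukemic libraries. Cd28, the costimulatory receptor (chromosome 1, 60716800 to 60773359), was listed at 0 in healthy libraries and at 60.5, 73.1, 76, 65, 65.6 and 79.4 FPKM in pre-leukemic 1 to 6 (adjusted p = 2.62e-07). Cd3d, a chain of the T cell receptor complex, and Cd6, a T cell glycoprotein, were also listed at 0 in healthy libraries and reached 35.3, 52.8 and 63.3 and 47.8, 61.5 and 82.7 (adjusted p = 8.87e-07 and 4.79e-07). Cd4 was listed at 0 in healthy libraries and at 15.5, 24.4 and 41 FPKM (adjusted p = 2.59e-05), while Cd8a, the gene of cytotoxic T cells, was listed at 0 there too and did not pass, at 2.78, 0, 0, 2.38, 5.66 and 1.14 (adjusted p = 0.181). Cd8b1, its partner chain, did pass, at 0, 0 and 0.258 and 7.31, 3.29, 8.43, 16, 20.9 and 24.6 (3.52 ± 0.64, adjusted p = 0.000963).

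Genes of activated and regulatory T cells went the same way, with 15 of 18 tested higher, 0 lower and 3 neither (median 4.81). That is 83.3% higher against 14.2% of all genes. Foxp3, the factor of regulatory T cells (chromosome X, 7573644 to 7595245), was listed at 0 in healthy libraries and at 31.1, 43.7, 49.5, 45.3, 52 and 18.6 FPKM in pre-leukemic 1 to 6 (adjusted p = 4.39e-06). Ctla4, an inhibitory receptor that these cells carry (chromosome 1, 60887000 to 60915832), was listed at 0 in healthy libraries and at 134, 154, 404, 167, 229 and 256 (adjusted p = 9.98e-08), with library 3 the highest. The checkpoint receptor Tigit was at 0, 0.438 and 0 and 59.4, 69.2 and 85.4 (5.89 ± 0.43, adjusted p = 4.79e-07). Il10, an anti-inflammatory cytokine of regulatory T cells and plasma cells, was listed at 0 in healthy libraries and at 14.1, 37.9 and 67.4 FPKM (adjusted p = 3.54e-05), and the costimulatory receptor Tnfrsf4, or OX40, was at 4.01, 0 and 2.97 and 99, 177 and 225 (6.30 ± 0.54, adjusted p = 2.12e-06). Lag3 was the member with a healthy level above 10 FPKM and was not called, at 16.5, 13.8 and 12.7 and 11.1, 16.6 and 29.5 (0.30 ± 0.57, adjusted p = 0.735). Of 17 chemokine receptors tested, 10 were higher, 0 lower and 7 neither (58.8% higher against 14.2% of all genes). Cxcr3 and Cxcr6, receptors of effector T cells and, for Cxcr3, of plasma cells, were listed at 0 in healthy libraries and at 56.1, 85.6 and 138 and 39.3, 71.7 and 126 FPKM in pre-leukemic ones (adjusted p = 5.06e-07 and 1.2e-06).

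Cytotoxic T and natural killer (NK) cell genes were mixed. Of 13 tested, out of 19 listed, 7 were higher (53.8%), 1 lower (7.69%) and 5 neither, against 14.2 and 13.1% of all genes. The NK receptors Ncr1, Klrb1c, Klrc1 and Klrc2 were listed at 0 in all 9 libraries. Ifng, the cytokine interferon gamma, was listed at 0 in healthy libraries and at 8.26, 19.7 and 28.6 FPKM in pre-leukemic ones (adjusted p = 3.93e-05). Gzmb, a granzyme that activated plasmacytoid dendritic cells also make, was listed at 0 and at 6.32, 16.8 and 26.2 (adjusted p = 5.56e-05). Gzmm, another granzyme, was the lower member, at 7, 29.9 and 9.59 and 0, 0, 3.16, 5, 6.08 and 0 (-2.84 ± 0.84, adjusted p = 0.0217). Its call was lost without healthy 2 (adjusted p = 0.298), without pre-leukemic 1 and 2 (0.082) and with a pseudocount of 0.1 (0.0857).

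Neutrophil genes were counted in separate lists, and the difference between the lists was not tested. The larger list holds genes of secondary and tertiary granules, filled in late maturation, together with other neutrophil genes. Among the latter are the receptor genes Cxcr2, Csf3r, Fpr1 and Fpr2, the cytokine gene Il1b and the genes S100a8 and S100a9. Of the 21 tested genes of this list, 18 were higher, 0 lower and 3 neither (median 4.04, 85.7% higher against 14.2% of all genes). Their sum was 104 to 107.2 FPKM in healthy and 3489 to 15810 in pre-leukemic libraries. Lcn2, the iron-carrier-binding lipocalin (chromosome 2, 32384633 to 32388252), was listed at 0 in healthy libraries and at 1015, 652, 218, 279, 658 and 764 FPKM in pre-leukemic 1 to 6 (adjusted p = 1.27e-06). Cybb, the oxidase subunit of phagocytes, was at 0.127, 0 and 0.491 and 35.9, 46.4 and 59.2 (5.39 ± 0.48, adjusted p = 2.56e-06). Of the 6 genes of primary granules, filled at the promyelocyte stage, 0 were called in either direction, by limma, and 0 had an unadjusted p under 0.05, with a summed level above all healthy libraries in 4 of the 6 and below them in the other 2. Mpo, or myeloperoxidase (chromosome 11, 87793581 to 87804413), was at 44.8, 30.1 and 41.9 FPKM in healthy libraries and at 91.5, 141, 0, 0, 7.54 and 199.8 in pre-leukemic 1 to 6 (-1.15 ± 1.77, adjusted p = 0.67). Elane, the neutrophil elastase, was high and low in the same libraries, at 33.2, 24.5 and 34.8 and 219.7, 182, 0, 0.304, 59.2 and 398 (0.14 ± 1.98, adjusted p = 0.967). Libraries 1, 2 and 6 thus lay above the healthy level of both genes and libraries 3 and 4 far below it.

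Of 20 monocyte and macrophage genes listed, 11 were tested and 5 were higher (45.5% against 14.2% of all genes). Emr1, Cx3cr1, Cd163 and Mrc1 were under 1 FPKM in all 9 libraries. Ctss, a lysosomal protease shared by many antigen-presenting cells, was at 2.19, 0.886 and 1.08 and 524, 657 and 850.4 (8.22 ± 0.59, adjusted p = 4.79e-07). Ly6c2, an antigen of inflammatory monocytes that plasma cells and T cells also carry and that has a near-identical neighbour, was at 2.73, 5.51 and 5.05 and 2135, 3441 and 3728 (9.10 ± 0.93, adjusted p = 8.44e-06). Of 9 dendritic cell genes tested, 6 were higher, 0 lower and 3 neither (66.7% higher against 14.2% of all genes). Siglech, a lectin of plasmacytoid dendritic cells (chromosome 7, 55768178 to 55778925), was at 0, 0.362 and 0 FPKM in healthy libraries and 60.8, 95.7, 109, 226, 473 and 485 in pre-leukemic 1 to 6 (7.27 ± 0.79, adjusted p = 1.49e-05). Irf8, the factor that these cells depend on, was at 1.59, 0.346 and 1.19 and 55, 69, 43.9, 128, 240.2 and 290.1 (5.91 ± 0.74, adjusted p = 4.58e-05). Ccr9, a homing receptor of plasmacytoid cells and T cells whose gene overlaps Slc6a20a on the opposite strand, was listed at 0 in healthy libraries and at 24.7, 47.4 and 89 (adjusted p = 5.46e-06). Without healthy 2, 3 dendritic cell genes were higher.

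Among mast cell, basophil and eosinophil genes 5 of 13 passed the filter on low values. Of these 4 were higher (80.0% against 14.2% of all genes). Prg2, which encodes the major basic protein of eosinophils and is also transcribed by plasma cells, was listed at 0 in healthy libraries and at 249, 348 and 479 FPKM (adjusted p = 1.2e-06), while the eosinophil peroxidase gene Epx and the basophil gene Fcer1a were listed at 0 in all 9 libraries. Cpa3, a mast cell protease, was listed at 0 in healthy libraries and at 1.73, 9.19 and 13.8 (adjusted p = 0.002) and the mast cell and progenitor factor Gata2 at 0 and 1.94, 4.9 and 9.996 (adjusted p = 0.00151).

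Of 7 tested erythroid genes 0 were higher and 3 lower (42.9% against 13.1% of all genes), with a summed level of 41.15 to 54.79 FPKM in healthy and 0 to 7.498 in pre-leukemic libraries. Those 3 were globin genes at low levels: Hbb-bs was at 9.43, 17 and 8.17 FPKM in healthy and 0, 0 and 0.914 in pre-leukemic libraries (-3.47 ± 0.46, adjusted p = 8.05e-05), and the near-identical genes Hba-a1 and Hba-a2, whose reads cannot be told apart, were at 6.03, 7.16 and 7.49 and 21.6, 16.4 and 13.2 in healthy libraries and at most 0.599 in pre-leukemic ones. Of 6 megakaryocyte genes 0 were higher and 1 lower (16.7%), Gp1bb, whose exons overlap those of Sept5 on the same strand (-3.62 ± 0.54, adjusted p = 0.000204). Of 4 osteoclast genes 0 were higher and 1 lower (25.0%), the collagen-degrading protease Ctsk, which fibroblasts also make, at 277, 254 and 265 and 1.28, 6.85 and 15.6 (-5.22 ± 0.65, adjusted p = 4.65e-05). Of 11 endothelial genes 1 was higher and 1 lower, which is 9.09% each way and no more than among all genes, and without healthy 2, 0 and 1. Plvap, a protein of vessel fenestrae, was at 5.35, 6.67 and 3.16 and above 0 only in pre-leukemic 2, at 0.101 (-2.64 ± 0.41, adjusted p = 0.000251). Stab2, the scavenger receptor of marrow sinusoids, was listed at 0 in healthy libraries and at 3.85, 7.76, 32.1, 1.49, 8.59 and 11.3 in pre-leukemic 1 to 6 (adjusted p = 0.00564, and 0.0695 without healthy 2).

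Interferon-stimulated genes are switched on by the factor complex ISGF3, which binds an interferon-stimulated response element in their promoters. Of 39 tested, 28 were higher, 0 lower and 11 neither (median 2.86, 71.8% higher). Counted on TPM, 15 were higher and 1 lower, and without healthy 2 19 and 0. Isg15, a ubiquitin-like modifier, was at 1.46, 0 and 2.15 FPKM in healthy and 47.5, 39.5, 58.2, 25, 8.16 and 9.95 in pre-leukemic 1 to 6 (3.95 ± 0.79, adjusted p = 0.00195). Ifit1, which binds foreign RNA, was listed at 0 in healthy libraries and at 29.3, 25.9, 65.7, 12.6, 14 and 20.7 (adjusted p = 0.000183). Igtp, a GTPase induced by interferon gamma, was at 8.89, 0.22 and 8.9 and 62.1, 87.3 and 113 (4.64 ± 0.64, adjusted p = 0.000103). Library 3 was the highest for Isg15 and Ifit1, and libraries 5 and 6 were the lowest for Isg15. Members that did not pass included Irf1, at 155, 241 and 149 and 179, 210.4 and 236 (0.11 ± 0.29, adjusted p = 0.815), with overlap between the groups. The part of the leukocyte genes described above in this list was not tested.

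RefSeq promoters of GRCm38.p6, 250 bases before to 50 after each start, were available for 30 of the 40 listed genes. The letters GAAA, any 2 bases and GAAA again, on either strand, stood in 16 of the 30 (53.3%), and in 12 of the 20 called higher, against 3.99% of all 27025 genes with such a window and 3.44% of 32851 windows. The following stretches upstream of the start, 5′ to 3′ on the strand of the gene, show where the letters lie in 5 genes called higher. They were chosen after their values and matches were seen, and capitals mark the match, on the other strand for Ifit1 and Ifit3.
Isg15: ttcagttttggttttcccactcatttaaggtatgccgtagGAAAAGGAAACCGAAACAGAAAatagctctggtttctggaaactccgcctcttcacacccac
Ifit1: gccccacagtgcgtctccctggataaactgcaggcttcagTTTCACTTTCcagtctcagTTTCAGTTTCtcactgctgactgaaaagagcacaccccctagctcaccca
Ifit3: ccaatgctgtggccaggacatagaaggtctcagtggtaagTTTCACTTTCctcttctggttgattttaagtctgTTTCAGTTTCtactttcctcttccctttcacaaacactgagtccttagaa
Irgm1: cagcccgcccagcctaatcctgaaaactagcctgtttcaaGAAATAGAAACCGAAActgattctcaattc
Igtp: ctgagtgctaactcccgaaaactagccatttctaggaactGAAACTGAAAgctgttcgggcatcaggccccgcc
The stretches are chr4:156200835-156200936 (-) for Isg15, chr19:34640745-34640853 (+) for Ifit1, chr19:34583333-34583456 (+) for Ifit3, chr11:48871421-48871490 (-) for Irgm1 and chr11:58199482-58199555 (+) for Igtp. Overlapping copies run together in Isg15, with 3 matches, and in Irgm1, with 2. Ifit3 was at 4.42, 0.223 and 4.1 FPKM in healthy and 9.25, 17.5 and 34.2 in pre-leukemic libraries (2.86 ± 0.91, adjusted p = 0.0298), and Irgm1 at 8.94, 5.25 and 7.94 and 21.2, 30.1 and 47.5 (2.13 ± 0.51, adjusted p = 0.00632). A match describes the letters and shows no binding.

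MHC class II genes, which present antigen on B cells, dendritic cells and macrophages, share a promoter module that ends in the Y box. Of 10 tested, 8 were higher, 0 lower and 2 neither (median 4.57, 80.0% higher against 14.2% of all genes). On a TPM scale, and also without pre-leukemic 1 and 2, 6 of the 10 were higher and 0 lower. Without healthy 2, which leaves 1 healthy sample, the median was 4.46. H2-Aa, the alpha chain of I-A, was at 8.24, 2.17 and 6.75 FPKM in healthy and 87, 138, 89.2, 293, 222 and 440.0 in pre-leukemic 1 to 6 (5.10 ± 1.03, adjusted p = 0.002). H2-Eb1, the beta chain of I-E, was at 0.858, 5.54 and 0.954 and 194, 209.9, 122, 275, 323 and 393 (6.07 ± 0.68, adjusted p = 1.91e-05). The peptide-loading subunit H2-DMa was at 2.09, 0 and 1.63 and 69.8, 71.8, 63.5, 115, 131 and 215 (5.91 ± 0.66, adjusted p = 1.9e-05), and libraries 4 to 6 held the highest values of all 3 genes. Ciita, the coactivator of the class, did not pass the filter, at 0.196, 0.836, 3.46, 0.26, 0.0306 and 0.0886 FPKM in pre-leukemic 1 to 6. The letters CTGATTGG on either strand stood in the promoters of 4 of 8 genes matched, and in 3 of 6 called higher, against 4.70% of all genes. They are shown in capitals for 3 higher genes, picked after their matches were seen.
H2-Aa: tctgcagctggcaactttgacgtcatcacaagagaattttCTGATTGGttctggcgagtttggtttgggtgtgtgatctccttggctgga
H2-Eb1: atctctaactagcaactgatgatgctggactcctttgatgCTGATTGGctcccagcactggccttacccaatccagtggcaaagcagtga
H2-Oa: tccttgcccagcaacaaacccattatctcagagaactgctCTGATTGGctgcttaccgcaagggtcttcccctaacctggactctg
These stretches are chr17:34287825-34287914 (-) for H2-Aa, chr17:34305765-34305854 (+) for H2-Eb1 and chr17:34092293-34092378 (+) for H2-Oa, a modulator of peptide loading that was at 0.313, 0 and 0.697 FPKM in healthy and 16.8, 31.7 and 62.3 in pre-leukemic libraries (4.82 ± 0.65, adjusted p = 8.44e-05). In the ER list above, the letters TGACGTGG, bound by the plasma cell factor XBP1 in some promoters, stood in 0 of 23 matched promoters, against 0.714% of all genes, which says only that these letters are not in these windows.

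In the lists of general cell functions, the shares of called genes were near or below those of all genes, so the members named describe single genes. Their counts on a TPM scale carry its lowering of all genes (median -1.08). Of 78 ribosomal protein genes tested, 10 were higher, 3 lower and 65 neither (12.8% higher against 14.2% of all genes), with a median of 0.05. Rps24 was at 1091, 1046 and 1137 FPKM in healthy and 2116, 2254 and 2786 in pre-leukemic libraries (1.11 ± 0.18, adjusted p = 0.000399), and Rps28 at 1835, 2180 and 1675 and 775, 1021 and 1191 (-0.96 ± 0.22, adjusted p = 0.00489). On a TPM scale 0 were higher and 69 lower, after quantile normalization 7 and 15, and with equal sums outside the immunoglobulin genes 21 and 2. Rps24, Rps6 and Rplp0, which were among the higher genes, turned to -0.57, -0.79 and -0.90 on the TPM scale. Rps28, whose gene overlaps Kank3 on the opposite strand, was not called without healthy 2 (adjusted p = 0.117). Of 72 nuclear genes of the respiratory chain, 4 were higher, 2 lower and 66 neither, so that 5.56% were higher against 14.2% of all genes. Without healthy 2 limma called 0 in either direction, and on a TPM scale 0 were higher and 40 lower.

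Glycolysis gave 3 higher and 3 lower of 23 tested, 13% each way against 14.2 and 13.1% of all genes, and on a TPM scale 0 and 8. Hk2, the hexokinase of glucose-consuming tissues, was at 275, 447 and 286 FPKM in healthy and 9.1, 28.5 and 77.5 in pre-leukemic libraries (-3.59 ± 0.55, adjusted p = 0.000256), and Slc16a1, a lactate carrier, at 22.7, 31.6 and 24.5 and 1.26, 2.6 and 3.54 (-3.02 ± 0.51, adjusted p = 0.000531). Gpi1, the second enzyme of the pathway, was higher (1.63 ± 0.31, adjusted p = 0.00119) but at -0.01 on a TPM scale. Hk2 and Slc16a1 were below every healthy value in all 6 libraries. Of 22 cholesterol synthesis genes, 2 were higher (9.09%) and 1 lower (4.55%), and on a TPM scale 1 and 3. Insig1, the sterol sensor that holds the pathway back, was the lower one, at 74.5, 63 and 79.3 and 5.78, 8.08 and 11.8 (-2.94 ± 0.46, adjusted p = 0.000285), and Mvd and Dhcr7 the higher ones, with adjusted p of 0.0892 and 0.13 without healthy 2.

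Cell division genes were counted as 6 higher, 0 lower and 28 neither of 34 tested (median 0.72), and the 17.6% higher were close to the 14.2% of all genes. Cenpa, the histone of the centromere, was at 10.1, 5.05 and 6.15 and 57, 77.8, 41.9, 24.8, 22.3 and 33.5 (2.43 ± 0.50, adjusted p = 0.00218), and Mcm2 of the replication helicase at 0.637, 1.22 and 0.914 and 12.1, 18.4, 28.7, 17.9, 17.6 and 10.1 (3.15 ± 0.65, adjusted p = 0.00248). Mki67, the marker of cycling cells, was at 0.502, 0.681 and 0.627 and 7.55, 6.8, 1.85, 0.478, 3.42 and 1.73 (1.26 ± 0.67, adjusted p = 0.184). Libraries 1 and 2 were the highest for Cenpa and Mki67 but not for Mcm2. Without pre-leukemic 1 and 2, 2 were higher and 1 lower, and without healthy 2, 2 and 0. On a TPM scale the counts were 1 and 2, with a median of -0.38, and Cenpa did not pass (adjusted p = 0.32).

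**Figure D4:**
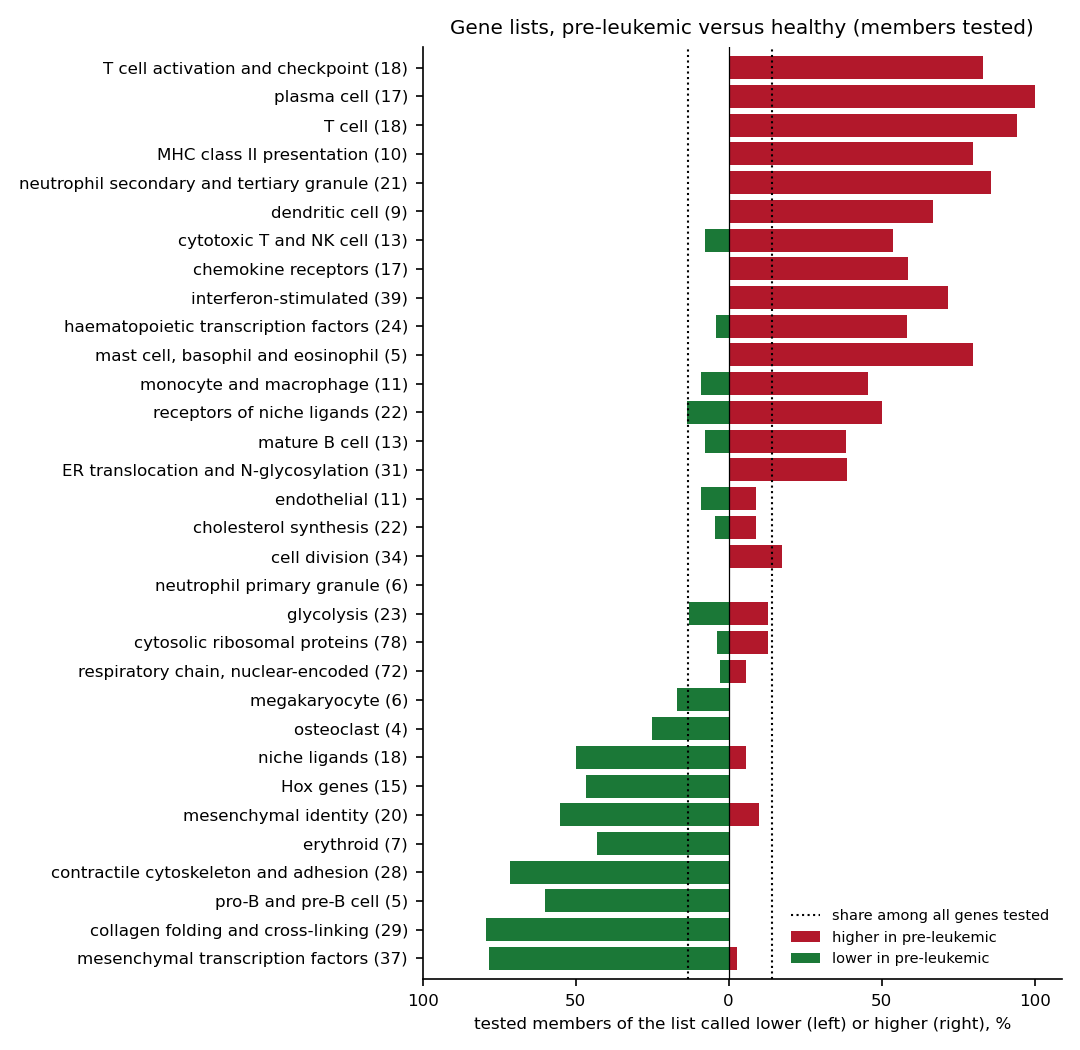
Share of the tested members of each of the 32 gene lists called higher (right) or lower (left) in pre-leukemic libraries, ordered by median change, with the number tested in parentheses and the shares among all genes (14.2 and 13.1%) as dotted lines. Plasma cell and T cell genes fill the right side, mesenchymal factors and collagen folding genes the left, and the metabolic lists lie near or inside the dotted lines.

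Outside these lists and the immunoglobulin genes, the largest rises and falls were taken among genes with a standard symbol. Rgs1, a brake on chemokine receptor signals in lymphocytes, was listed at 0 in healthy libraries and at 255, 397 and 624 FPKM (adjusted p = 7.05e-09). The phosphatase gene Ptpn22 and the ribonuclease gene Rnase6 were also listed at 0 there and reached 96, 132 and 163 and 132, 186 and 286 (adjusted p = 1.37e-07 and 9.71e-08). Itgal, the integrin chain of LFA-1, was at 0.712, 0.0959 and 0.883 and 124, 140.3 and 193 (6.72 ± 0.54, adjusted p = 1.2e-06), the adaptor gene Sla at 0.237, 0 and 0.528 and 121, 149 and 169.7 (6.96 ± 0.52, adjusted p = 6.43e-07), and the T cell receptor constant gene Trbc2 at 1.59, 0.96 and 3.51 and 248, 330.2 and 419 (6.96 ± 1.02, adjusted p = 0.000168). None of these overlapped between groups. Klk1, a kallikrein of a family of near-identical genes, was listed at 0 in healthy libraries and at 39.1, 33.7, 54.8, 245, 355 and 536 in pre-leukemic 1 to 6 (adjusted p = 8.19e-05). H2-Q7, a class I gene with near-identical neighbours, was at 9.59, 1.11 and 9.84 and 732, 764 and 816 (7.34 ± 0.72, adjusted p = 5.82e-06). Of the 10 largest falls taken this way, the first was Chad, at 2426, 2459 and 2441 and 0, 0.442 and 4.24 (-10.34 ± 0.63, adjusted p = 9.73e-08). Ibsp, Cytl1, Col12a1, Clu, Mmp13 and Fmod followed, with changes of -9.32 to -8.61. Smaller than these was the fall of Rn7sk, a nuclear RNA without a poly(A) tail, at 356, 303 and 324 and 1.37, 3.69, 0, 0, 0 and 0 (-7.75 ± 0.59, adjusted p = 7.67e-07).

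The 6 pre-leukemic libraries were not alike, and some of the lists that separated them did not separate the groups. No test between these libraries was possible, since each is 1 sample. The sum of the primary granule genes was 652, 808, 28.8, 13.6, 217 and 1396 FPKM in pre-leukemic 1 to 6, a range of 103-fold, against 124.5 to 140.8 in healthy libraries. The sum of the list of secondary and tertiary granule and other neutrophil genes was 15810, 13570, 3489, 6735, 12920 and 14520, lowest in the same 2 libraries. Dendritic cell genes summed to 160.5, 217, 241, 502, 891 and 928, with libraries 5 and 6 the highest, and MHC class II genes to 1471, 1743, 1554, 2688, 2458 and 3422. Cell division genes summed to 1030, 1050, 643, 339.6, 711 and 640.1, highest in libraries 1 and 2. Plasma cell and T cell sums varied less, by 1.56-fold and 1.59-fold between the lowest and the highest library. C1q genes of macrophages were highest in libraries 1 and 2: C1qb was at 16.6, 15.6, 0, 2.95, 2.43 and 0 FPKM and C1qc at 16.2, 25.6, 0, 0, 0 and 0.224.

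**Figure D5:**
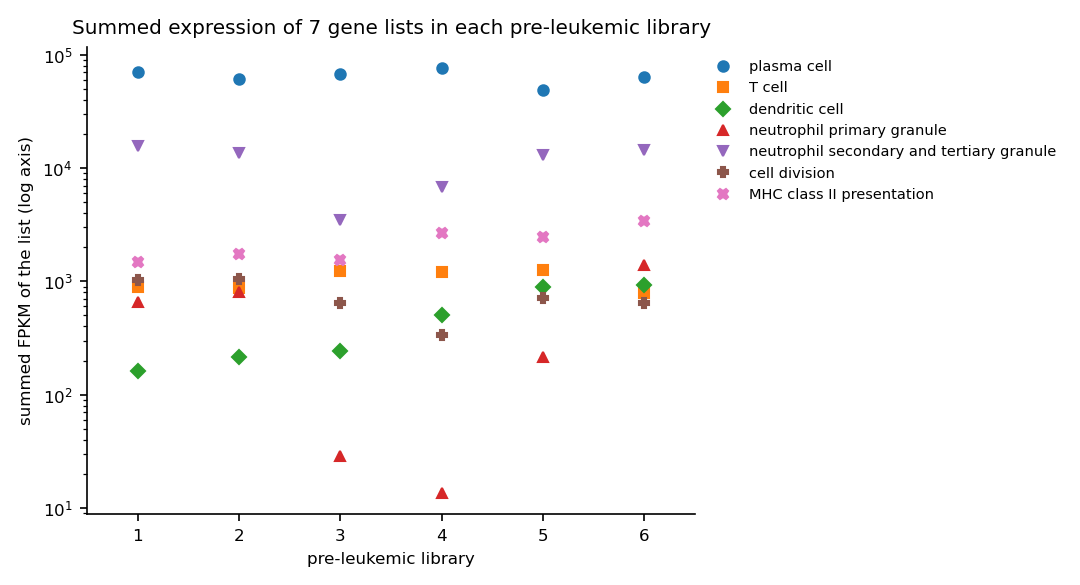
Summed FPKM of 7 gene lists (log axis) in each of the 6 pre-leukemic libraries, 1 symbol per list. Primary granule genes span 13.6 to 1396 FPKM and dendritic cell genes 160.5 to 928.5, while plasma cell genes stay between 48570 and 76010.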

How the data were processed

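Poly(A) RNA of cells sorted as MSCs was copied to cDNA and made into Nextera XT libraries, per the labels. The authors deposited 1 table of FPKM values for the 13 libraries. Per the submitters' processing notes it was made with bcl2fastq, TopHat, Cufflinks 2.2.1 and Cuffnorm on mm10; how multiply mapped reads and strand were counted is not stated there. Read depth was inferred from the spacing of low FPKM values, since read totals are not given in these files, and all 13 columns were mapped to samples by their titles.

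A gene entered the test when 3 or more of the 13 columns reached 1 FPKM, which 13118 genes did. The test was that of limma 3.58.1 (R 4.3.3; lmFit and eBayes with a trend), run on log2(FPKM + 1). All 3 groups entered 1 fit of 12 samples with 9 residual degrees of freedom, healthy 1 and 3 having been averaged. P-values were adjusted by Benjamini and Hochberg over all genes tested and called under 0.05. With 6 against 2 samples, simulated data were also run. Of 100 genes given a log2 change of 2, 25% were called, and of 100 given a change of 3, 63%. Of 12918 genes left unchanged, 3 were called. In the data themselves 3583 genes were called. The adjusted cut is stricter where fewer genes change, so the simulated shares may be too low for these data. A gene without a call may still differ.

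The comparison, its 32 gene lists and the genes named were chosen with earlier results of these data known. Named were each list's 3 members of smallest p, called members opposite to the rest of their list, the 10 largest rises and falls outside the lists and immunoglobulin genes with at least 1 FPKM throughout the higher group and a standard symbol (no Gm, Rik, LOC, Mir or Snor names), general markers and ligand-receptor pairs. Other members, the non-coding RNAs and the printed promoters were chosen after their values were seen. Alternatives changed the scaling, the pseudocount, the filter, the samples in the fit and single replicates, and 2 were added after seeing the data: leaving out pre-leukemic 1 and 2, and leaving out recovered 3. Gene positions come from GENCODE vM21 on GRCm38, of which mm10 is the same assembly, and promoters from RefSeq on GRCm38.p6. Csf1r, Irf7 and Prss57 overlap a gene on the other strand and share the uncertainty of such genes. The result for 1 gene of the lists is not reported here.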

Additional observations from a re-analysis of the deposited data

Results flagged for a closer look

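In 12 of 137 genes examined, 1 of the 6 pre-leukemic libraries stood apart from the others. Its gap to the nearest library, as a share of the range over the 6 in log2(FPKM + 1), was above Dixon's critical value. For normally spread values, chance gives about 6.9 such genes. The 12 cannot be read against that number. A gene detected in only 1 of the 6 libraries always passes, whatever its level, and some genes below are of this kind. Derl3, a plasma cell gene of protein degradation, was at 170.2 FPKM in library 5 and at 337.9 to 420.7 in the others. Tnfrsf13b, the plasma cell receptor TACI, was at 209.2 in library 6 and at 104.5 to 131.0 in the others. Gimap4, a GTPase of lymphocytes, was at 62.08 in library 6 and at 160.5 to 224.4 elsewhere. Il15 was at 0.7152 in library 5 against 8.576 to 25.01.

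Genes of other lineages stood out in single libraries at low values. Col12a1, a fibril-associated collagen, was at 9.978 FPKM in library 4 against 0 to 1.35 in the others. Csf1r, the macrophage growth factor receptor, was at 2.203 in library 1 against 0 to 0.52. Dlx5 was at 0.5166, Atp6v0d2, a proton pump subunit of osteoclasts, at 0.8291 and Hba-a2 at 0.5987 in library 1, Plvap at 0.1008 in library 2 and Pax5 at 0.2725 in library 4, each listed at 0 in the other 5. Gp1bb was at 0.3938 in library 4 and at most 0.07001 elsewhere. All of these but Col12a1, Csf1r and Atp6v0d2 lie near or below 3 reads on 1 kb, which is 0.517 to 0.769 FPKM in these libraries.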

How the results depend on the processing

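Of 123 named genes called, 98 were called in every alternative. On a TPM scale, 791 genes were higher and 4200 lower, 14 of the 123 calls were lost, and 6 genes changed sign: Rps24 (-0.57), Rps6 (-0.79), Rplp0 (-0.90), Atp5f1 (-0.01), Gpi1 (-0.01) and Pcna (-0.23). The immunoglobulin genes take 54.9 to 80.5% of a fixed total on that scale. The median of all genes shifted by -0.14 after quantile normalization and by 0.11 with equal sums outside the immunoglobulin genes. Leaving out 1 healthy library gave 785 to 1877 genes higher and 931 to 1731 lower, the lowest without healthy 2, which leaves 1 healthy sample and lost 18 calls; leaving out 1 pre-leukemic library gave 1606 to 1775 and 1513 to 1615. Without pre-leukemic 1 and 2, 7 calls were lost, and without recovered 3, 2128 genes were higher and 1984 lower. Fitting only the healthy and pre-leukemic samples gave 2762 and 2397.

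Correlations of the deviations of samples with the same number were -0.0194 to 0.0153, inside or near those of other numbers (-0.0233 to 0.0262). Of the 3 healthy libraries, 1 correlated best with its own number. Since healthy 1 and healthy 3 were near duplicates, this check could not decide whether samples with the same number are paired. A fit with the replicate number as a block and the healthy libraries separate called 1953 genes higher and 1747 lower.

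Only 2 healthy samples, an estimated depth and Igkc at 0 in 2 libraries limit precision.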
